A study of Mus musculus with 2 samples.

Results

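The cells described here are CD8 T cells that carry mRNA of granzyme K or of the T-box factor eomesodermin and have little or none of that of granzyme A. They were chosen from UMI counts (unique molecular identifiers, 1 per captured mRNA molecule). A barcode was taken if it had 500 or more detected genes, no more than 10% of its UMIs from mitochondrially coded genes, at least 2 UMIs of Cd3d, Cd3e and Cd3g together, and at least 2 of Cd8a and Cd8b1 together. It also had no UMI of Cd4, Cd79a, Xcl1 or Itga1, at most 1 of Trdc and of Gzma, and at least 1 of Gzmk or Eomes. This gave 528 of the 25811 barcodes, 260 in the LYZKL library and 268 in the WTKL library. The series holds these 2 droplet libraries, 1 per group, of CD4 and CD8 positive T cells sorted from lung tumours at 8 weeks after intranasal adenovirus carrying Cre (Ad-Cre). Both came from bone marrow chimeras whose hosts carried floxed Lkb1 (Lkb1fl/fl) beside a further allele, so that Ad-Cre deletes Lkb1 in infected lung cells. In such chimeras blood cells are meant to come from the donor marrow, and the origin of the chosen cells was not measured. LYZKL donors were Tmem173fl/fl;Lyz2-Cre, which deletes the STING gene Tmem173 where the myeloid promoter Lyz2 is active, and WTKL donors were Tmem173fl/fl without Cre. The treatment label of WTKL names tamoxifen as well and that of LYZKL does not, so genotype, tamoxifen and library cannot be told apart. The labels do not give the number, age or sex of the mice in a library, or say whether mice were pooled.

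Granzyme K is a serine protease of cytotoxic granules, and Eomes is a transcription factor that CD8 T cells use in the effector and memory programmes. Memory CD8 T cells that recirculate through lymph nodes carry the homing receptor Ccr7 and the factors Tcf7 and Lef1, while cells that stay in tissue carry receptors such as Cxcr6 and the integrin Itgae. In tumours, Gzmk cells often carry the inhibitory receptor Pdcd1 and the factor Tox, and Eomes is also found in unprimed CD8 cells with a memory appearance.

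With 1 library per group no test between LYZKL and WTKL is possible. All values are therefore descriptions of these libraries, and the 95% intervals state the error of counting, while mouse-to-mouse variation is not known. Levels are CPM, the UMIs of a gene summed over the cells of a class per 1000000 UMIs of that class, and log2 ratios are LYZKL over WTKL unless stated otherwise. A gene is called past the threshold at a ratio of 1.5-fold in either direction. Fewer cells with a transcript and less transcript per cell are not separated by a summed level, so the share of cells is given where it matters.

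The libraries held 93584629 UMIs in LYZKL and 77181312 in WTKL over 32285 genes, and 13451 and 12003 barcodes passed the quality limits. The labels state 7202 and 6609 cells, so the matrices list more barcodes than that. The libraries shared 100 barcodes, among them those of 2 LYZKL and 4 WTKL chosen cells, and no barcode was chosen in both. Tmem173, the targeted gene, had 27.0 CPM in LYZKL and 36.6 CPM in WTKL among barcodes with at least 5 Lyz2 UMIs and no Cd3 or Cd79a UMI. In the chosen T cells it had 29.3 CPM in LYZKL and 33.1 CPM in WTKL (log2 ratio -0.18, 95% interval -0.75 to 0.39). After the step described below it had 29.3 CPM in LYZKL and 25.9 CPM in WTKL (0.18, -0.54 to 0.90), and both intervals include 0. Whether the 3′ end counted here lies in the deleted part is not given in the sources used here, so this does not check the deletion.

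The marker genes of the label were present. Gzmk, which the rule used, was detected in 80.4% of LYZKL and 73.1% of WTKL chosen cells. Eomes, likewise used, was detected in 44.6% of LYZKL and 56.7% of WTKL cells. Among B cells, which should lack both (at least 2 Cd79a and no Cd3 UMI), the share with a Gzmk UMI was 0.61% in LYZKL and 0.447% in WTKL at median depths of 3451.5 and 3129 UMIs. Among Lyz2-rich barcodes (at least 5 Lyz2 and no Cd3 or Cd79a UMI) it was 2.6% and 0.779%, at 8647.5 and 9406 UMIs. Ccl5, a chemokine of activated and memory CD8 cells that the rule did not use, was detected in 88.8% of LYZKL and 91.8% of WTKL chosen cells, at 6349 and 8223 CPM. The share of B cells with a Ccl5 UMI, at 60.0 and 81.8 CPM, was 22.9% in LYZKL and 26.4% in WTKL. Median depth of the chosen cells was 4993.5 UMIs in LYZKL and 5699.5 UMIs in WTKL. Of 8 NK markers, 5 had UMIs in the chosen cells of each library, with a sum of 762 CPM in LYZKL and 1188 CPM in WTKL, while Ncr1 and Klra4 had none in either. Of 7 gamma-delta markers 5 had UMIs, with a sum of 355 CPM in LYZKL and 255 CPM in WTKL, while Trdv4 and Sox13 had none. After the step described below, which leaves out cells rich in myeloid or neutrophil mRNA, the NK sum was 197 CPM in LYZKL and 162 CPM in WTKL. The gamma-delta sum was then 396 CPM in LYZKL and 304 CPM in WTKL. The part of either list in the results was not tested.

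Macrophage and neutrophil mRNA went with part of the cells. At least 10 UMIs of a list of 9 myeloid and 7 neutrophil markers were found in 31 LYZKL cells (11.9%) and 46 WTKL cells (17.2%). These cells were deep, with a median of 10244 UMIs in LYZKL and 14166 UMIs in WTKL, against 4782 and 5068.5 UMIs in the other chosen cells. They held 23% of the UMIs of the chosen cells in LYZKL and 34.2% in WTKL. The summed myeloid list was 1706 CPM in LYZKL and 4176 CPM in WTKL with them, and 325 CPM and 308 CPM without them. The summed neutrophil list was 2949 CPM in LYZKL and 988 CPM in WTKL with them, and 198 CPM and 222 CPM without. The results below are therefore given for the 229 LYZKL and 222 WTKL cells that remain, called myeloid-low cells, with the value over all chosen cells where they differ. In the myeloid-low cells the B cell list still summed to 214 CPM in LYZKL and 459 CPM in WTKL, with Ms4a1 at 0, and its part in the results was not tested.

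Gzmk or Eomes cells were a smaller share of CD8 cells in LYZKL. They made up 8.41% of 3092 CD8 cells in LYZKL (Clopper-Pearson 95% interval 7.45 to 9.44) and 11.8% of 2268 in WTKL (10.5 to 13.2), a ratio of 0.712 (0.605 to 0.837). The remaining CD8 cells fall into 3 classes that the same rule sets apart. Cells with an Xcl1 or Itga1 UMI, a chemokine and an integrin of tissue-resident cells, were 44.5% of CD8 cells in LYZKL and 21.9% in WTKL. Cells with under 2 Gzma UMIs and none of Xcl1, Itga1, Gzmk or Eomes, called cells with none of the 4 genes, were 27.5% in LYZKL and 39.6% in WTKL, and cells with at least 2 Gzma UMIs were 19.6% and 26.8%. Within the CD8 cells that had neither Xcl1, Itga1 nor 2 Gzma UMIs, Gzmk or Eomes cells were 23.4% in LYZKL and 23% in WTKL (ratio 1.02, 0.878 to 1.18). When each cell was thinned to 2000 UMIs before the rule was applied, the share was 8.80% of 2046 cells in LYZKL and 9.82% of 1303 in WTKL (ratio 0.896, 0.722 to 1.11). The interval of that ratio includes 1, but thinning also removes UMIs of Xcl1, Itga1 and the other genes that exclude a cell. The thinned share is thus not that of the same cells at equal depth. Without thinning, the ratio was 0.901 (0.786 to 1.03) when up to 1 Xcl1 or Itga1 UMI was allowed. The 4 classes make up all CD8 cells, so a larger share of 1 class must go with smaller shares of others. When CD8 cells with 3 or more UMIs of myeloid, B, plasma, NK, epithelial and endothelial markers were left out, Gzmk or Eomes cells were 70 of 866 CD8 cells in LYZKL and 35 of 268 in WTKL, a ratio of 0.619 (0.422 to 0.907). A UMI of the B cell gene Igkc alone was found in 47.3% of LYZKL and 79.9% of WTKL chosen cells.

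**Figure D1:**
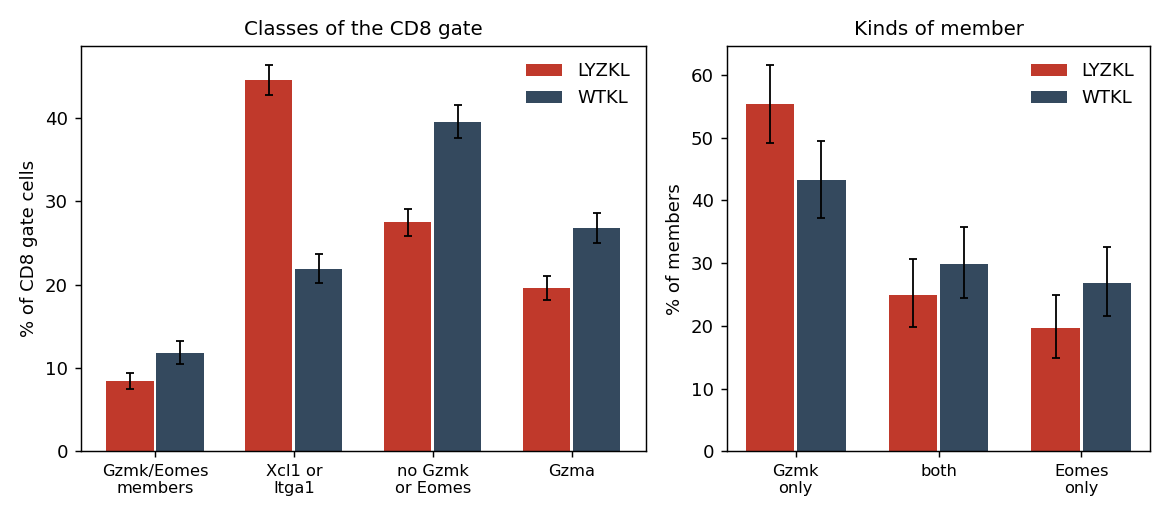
Share of each CD8 class in percent of CD8 cells (left) and of each kind of Gzmk or Eomes cell, called members, in percent of them (right), LYZKL left of WTKL, with Clopper-Pearson 95% intervals. Gzmk or Eomes cells were 8.41% in LYZKL and 11.8% in WTKL, while cells with Xcl1 or Itga1 were 44.5% and 21.9%. Gzmk-only cells were 55.4% in LYZKL and 43.3% in WTKL.

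The rule has a threshold at 1 UMI, and many cells stood at it. Exactly 1 UMI of Gzmk and Eomes together was found in 112 LYZKL and 120 WTKL cells, and 5 or more in 58 and 72. Tcf7 was 181 CPM in LYZKL cells with 1 such UMI and 80.3 CPM in those with 5 or more, beside 249 CPM in the 849 cells just outside, with none. In WTKL, Tcf7 was 324 CPM at 1 UMI and 139 CPM at 5 or more, beside 416 CPM in the 897 cells with none. In Tcf7, cells at 1 UMI thus stood between the cells outside the rule and those well inside it. Tox showed the opposite order in both libraries. It was 219 CPM at 1 UMI and 388 CPM at 5 or more in LYZKL, beside 174 CPM at none, and 108 CPM and 393 CPM in WTKL, beside 74.1 CPM. Not every gene was so ordered. Gzmb was 99.1 CPM at none, 55.4 CPM at 1 UMI and 321 CPM at 5 or more in LYZKL. In WTKL it was 86.1, 183 and 506 CPM. Ccr7 was 109, 122 and 34.8 CPM in LYZKL and 182, 151 and 23.8 CPM in WTKL. Median depth at 1 UMI was 4650 UMIs in LYZKL and 7043 UMIs in WTKL. At the other limits, 21 LYZKL and 35 WTKL cells had 1 Gzma UMI and 6 and 5 cells with 2 fell just outside, and 138 LYZKL and 56 WTKL cells fell outside by a single Xcl1 or Itga1 UMI.

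The cells were of 3 kinds that differed widely. Cells with Gzmk only were 144 in LYZKL (55.4%) and 116 in WTKL (43.3%), cells with both were 65 and 80, and cells with Eomes only were 51 (19.6%) and 72 (26.9%). Since the kinds are cut from the chosen genes, levels of other genes are given as a description. Among myeloid-low cells, Ccr7, the lymph node homing receptor, had 10.4 CPM in Gzmk-only cells, 9.35 CPM in cells with both and 329 CPM in Eomes-only cells of LYZKL. In WTKL, Ccr7 had 58.6, 39.6 and 310 CPM in the same order. Igfbp4, a gene of naive T cells, had 3.45, 6.24 and 476 CPM in LYZKL and 85.7, 7.93 and 459 CPM in WTKL. Eomes-only cells thus had the most Ccr7 and Igfbp4 mRNA in both libraries, and the cells with both stood with the Gzmk-only cells. Satb1, Plac8, Cmah, Txk and Sidt1 were also among the genes lowest in Gzmk-only relative to Eomes-only cells.

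The genes highest in Gzmk-only relative to Eomes-only cells included genes of an inhibitory receptor, chemokines and a cytokine. Pdcd1, the PD-1 inhibitory receptor, had 324 CPM in Gzmk-only cells, 234 CPM in cells with both and 22.1 CPM in Eomes-only cells of LYZKL. In WTKL it had 255, 256 and 19.9 CPM. Cxcr6, a receptor for the chemokine Cxcl16, had 399, 228 and 38.7 CPM in LYZKL and 252, 97.8 and 15.5 CPM in WTKL. The chemokine Ccl4 had 1170.2 CPM in Gzmk-only and 188 CPM in Eomes-only cells of LYZKL, against 1132 and 84.2 CPM in WTKL. Ifng, the cytokine interferon gamma, had 350 and 66.4 CPM in LYZKL and 451 and 48.7 CPM in WTKL. S100a4, S100a6, Lgals3 and Nr4a2 completed the highest 8. The chosen cells thus cover cells high in Ccr7 and cells high in Pdcd1 mRNA. In myeloid-low Eomes-only cells, a list of 7 naive T cell markers summed to 2598 CPM in LYZKL and 2758.5 CPM in WTKL. It summed to 264 and 651 CPM in Gzmk-carrying cells, and to 1248 and 2121 CPM over all cells with none of the 4 genes. A list of 6 memory CD8 markers summed to 3123.5 and 4868 CPM in Eomes-only and 12575 and 15536 CPM in Gzmk-carrying cells. Whether Eomes-only cells are memory or naive cells was not tested. In single myeloid-low cells, Pdcd1 was detected in 32.3% of LYZKL cells with a Tcf7 UMI and 63.5% of those without, and in 28.7% and 60.7% in WTKL. Among B cells, a Pdcd1 UMI was found in 1.83% in LYZKL and 1.34% in WTKL.

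Cells with both transcripts stood apart in some genes. Ikzf2, the transcription factor Helios, had 44.9 CPM in Gzmk-only, 65.5 CPM in double and 13.8 CPM in Eomes-only cells of LYZKL, and 138, 256 and 22.2 CPM in WTKL. Tox, a factor of persistently stimulated T cells, had 350, 471 and 85.8 CPM in LYZKL and 302, 491 and 109 CPM in WTKL. Both were thus highest in the double cells of each library. Ccl5 had 10710, 7507 and 1782 CPM in LYZKL and 12483, 13582 and 3578 CPM in WTKL. Esm1, which encodes a secreted proteoglycan of endothelium, had 36.2, 178 and 11.1 CPM in LYZKL and 47.3, 164 and 2.22 CPM in WTKL. Esm1 (chr13:113209659-113218098, plus strand) lies inside the annotated span of Gzmk (chr13:113171608-113225908, minus strand; GENCODE M21, GRCm38). The strand setting of the counting is not given in the sources used here, and whether Esm1 counts include reads of Gzmk was not tested. Transcripts of the gamma chain constant gene Tcrg-C2, which many alpha-beta T cells also carry, had 342 CPM in Gzmk-only and 19.4 CPM in Eomes-only cells of LYZKL, and 291 and 33.2 CPM in WTKL. Tcrg-C2 has near-identical copies that the counting could split.

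**Figure D2:**
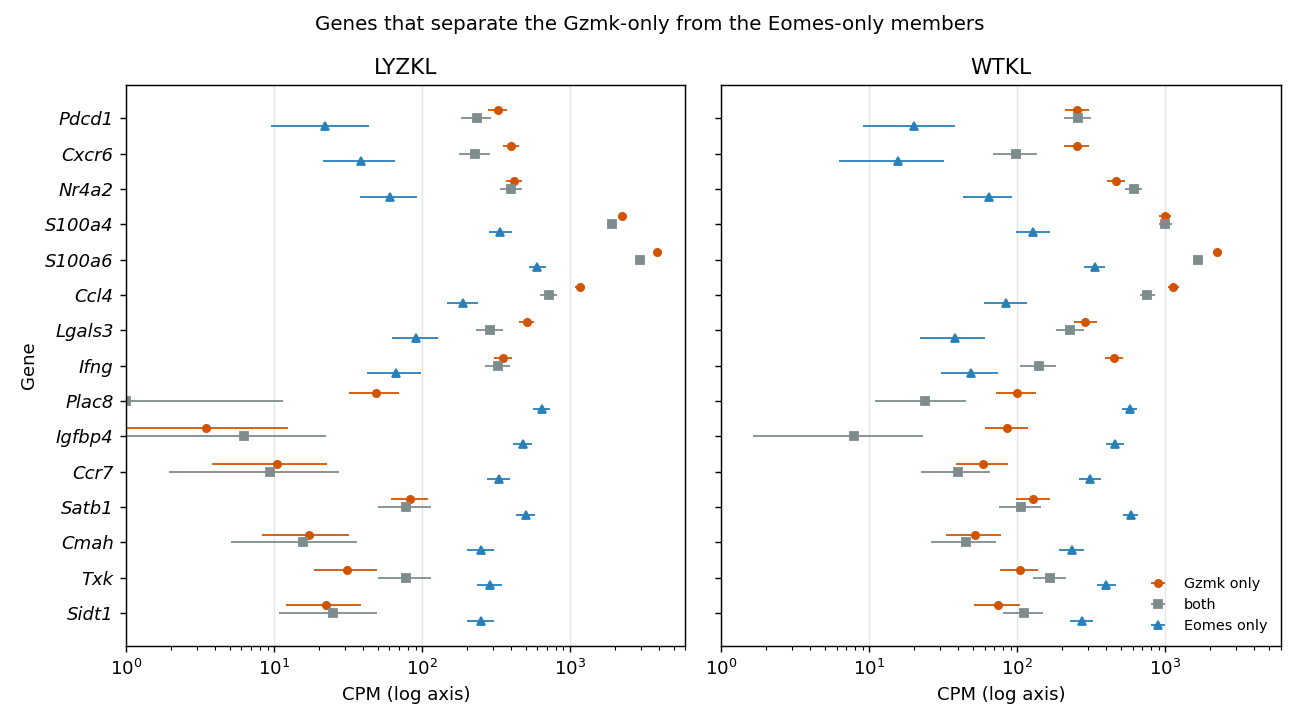
Levels in CPM (log axis, values under 1 drawn at 1) of 15 genes in myeloid-low cells with Gzmk only, with both transcripts and with Eomes only, LYZKL in the left panel and WTKL in the right, with exact Poisson 95% intervals. In both panels Ccr7 is highest in Eomes-only cells (329 CPM in LYZKL, 310 CPM in WTKL) and Pdcd1 in cells that carry Gzmk.

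Against the other CD8 classes of the same library, the myeloid-low cells differed in further genes besides those of the rule. This is a description, since the rule cut the classes. Against CD8 cells with none of the 4 genes, 2708 genes had ratios of the same sign in both libraries. Of these, 52 were past 1.5-fold higher and 43 past it lower in both. The number of genes with opposite signs is not given here, so these counts are not shares of all genes and serve only to rank genes. The highest genes by the smaller of both libraries' ratios included Sh2d1a, Il10ra, Tigit, Ccr2, Arsb, Mt1, Pou6f1 and Snx10. Sh2d1a, the signalling adaptor SAP, had 145 CPM in Gzmk or Eomes cells and 52.9 CPM in the other class of LYZKL, and 202 and 66.2 CPM in WTKL. Ccr2, a receptor for the chemokine Ccl2, had 60.2 and 23.6 CPM in LYZKL and 67.5 and 27.5 CPM in WTKL. Tigit, an inhibitory receptor, had 69.8 and 27.7 CPM in LYZKL and 73.0 and 15.8 CPM in WTKL. The lowest was Il17a, the cytokine of type 17 T cells, with 18.2 CPM in Gzmk or Eomes cells and 75.9 CPM in the other class of LYZKL, and 29.1 and 129 CPM in WTKL. Against the Xcl1 or Itga1 class, 2824 genes had ratios of the same sign in both libraries. Of these, 62 were past 1.5-fold higher and 87 past it lower in both, again without the number of genes with opposite signs. Ccr7 was among the highest, with 101 and 21.2 CPM in LYZKL and 142 and 49.6 CPM in WTKL. Igfbp4, Cmah, Txk, S1pr1, Sidt1, Slamf6 and the interferon-inducible GTPase Iigp1 were also higher in both libraries. The chemokine gene Ccl1 was the lowest, with 5.55 CPM in Gzmk or Eomes cells and 121 CPM in the other class of LYZKL. In WTKL, Ccl1 had no UMI in Gzmk or Eomes cells and 121 CPM in the other class. Ifitm1, Cd226, Ccl3, Tnfsf11, Rgs16, Sema6d and Birc5 were also lower in both libraries.

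Between the libraries, myeloid-low cells of LYZKL had more mRNA of NK receptors, of Cxcr6 and of the integrin Itgae. They had less of granzyme B and its inhibitor Serpinb9, of the factors Maf and Ikzf2, of interferon-induced genes and of Tcf7. Over genes of at least 30 CPM and 100 UMIs, 4.49% of 3628 genes were past 1.5-fold higher and 2.26% past it lower in LYZKL. Over all chosen cells the shares were 4.86% and 4.5% of 4694 genes. There the genes furthest apart were mostly those of other cells. Ccl17 had 95 UMIs in 2 LYZKL cells, S100a9, Cstdc4 and Retnlg of neutrophils were higher in LYZKL, and the macrophage genes C1qa, C1qc, Apoe and Cybb were lower. For example, the log2 ratio of C1qa was -2.92 over all chosen cells and rested on 3 and 4 UMIs in the myeloid-low cells.

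NK receptor genes were higher in LYZKL. Klrk1, which encodes the activating receptor NKG2D, had 232 CPM in LYZKL and 98.2 CPM in WTKL (log2 ratio 1.24, 95% interval 0.94 to 1.56). It was detected in 42.4% of LYZKL and 22.1% of WTKL myeloid-low cells. When these cells were thinned to 2000 UMIs the shares were 27.9% and 14.1%, and among B cells a Klrk1 UMI was found in 1.52% and 0.895%. Among Lyz2-rich barcodes it was found in 3.46% and 2.34%. Klrc2, which encodes NKG2C, had 65.0 CPM in LYZKL and 20.4 CPM in WTKL (1.67), and its near-identical neighbour Klrc1, which encodes NKG2A, had 208 and 105 CPM (0.98). Of 14 measured killer and NK receptor genes, 8 were past 1.5-fold higher and 3 past it lower, with a median log2 ratio of 0.66. Over all 8996 genes of at least 5 CPM, 16.3% were past it higher and 7.09% lower, with a median of 0.10. Over all chosen cells the median was 0.68, and it turned to -0.080 with no limit on Gzma. Klrg1, a receptor of terminal effector cells, was among the lower, with 2 UMIs in LYZKL and 23 UMIs in WTKL. In all cells of the other CD8 classes the list median was 0.32 with Xcl1 or Itga1, 0.71 with none of the 4 genes and 0.17 with Gzma. The log2 ratio of Klrk1 was 0.93, 2.27 and 0.48 in the same order. The direction was thus not particular to Gzmk or Eomes cells.

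Cxcr6 and Itgae, receptors of cells that stay in tissue, were also higher in LYZKL. Cxcr6 had 252 CPM in LYZKL and 123 CPM in WTKL (log2 ratio 1.04, 0.76 to 1.33). A Cxcr6 UMI was found in 51.5% of LYZKL and 33.3% of WTKL cells, and in 2.74% and 1.12% of B cells. Itgae, the CD103 integrin chain that binds epithelial E-cadherin, had 113 CPM in LYZKL and 44.8 CPM in WTKL (1.33, 0.88 to 1.80). Both were also higher over all cells of the other CD8 classes. The log2 ratio of Cxcr6 was 0.84 with Xcl1 or Itga1, 1.26 with none of the 4 genes and 1.08 with Gzma. That of Itgae was 0.38, 0.76 and 1.45 in the same order, so the direction was not particular to Gzmk or Eomes cells. S100a4, a calcium-binding protein of migrating cells, had 1617 CPM in LYZKL and 688 CPM in WTKL (1.23). It was detected in 84.3% of LYZKL and 55.0% of WTKL cells, and in 17.1% and 14.8% of B cells. The residency list that holds Cxcr6 and Itgae did not go one way, with 5 of its 10 measured genes higher and 5 lower. Of these, 4 were past 1.5-fold higher and 1 past it lower, with a median of 0.08. The shares over all 8996 genes were 16.3% higher and 7.09% lower. The next genes are of no list and are named by their rank. Tnfsf11, which encodes RANKL, had 74.5 CPM in LYZKL and 19.6 CPM in WTKL (1.92, 1.28 to 2.62). Lmna, the nuclear lamin A gene, had 140 and 41.6 CPM (1.75), Capg, an actin-capping protein gene, 148 and 43.2 CPM (1.78), and the endocytic adaptor gene Hip1 185 and 62.0 CPM (1.57). Nrn1, which encodes neuritin, had 75.3 CPM in LYZKL and 14.9 CPM in WTKL (2.34, 1.61 to 3.13). Schip1, Ccl3 and Cdkn1a were also among the highest, but Capg and Cdkn1a were at 0.12 and -0.38 over all chosen cells.

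Some of the highest genes rested on few cells. Of 144 Hist1h1b UMIs in LYZKL, 138 lay in 6 cells that had at least 5 UMIs of 12 cell cycle genes, against 6 UMIs in all in WTKL (log2 ratio 4.60). Cells with that many cell cycle UMIs were 2.62% of myeloid-low cells in LYZKL (0.967 to 5.62) and 1.35% in WTKL (0.280 to 3.90), and these intervals overlap. Mki67 (1.38) and Hist1h1e (1.78) belong to the same programme. Lcn2, a neutrophil gene, had 99 UMIs in LYZKL, 88 of them in a single cell, and 11 UMIs in WTKL.

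Granzyme B mRNA and that of its inhibitor Serpinb9 were lower in LYZKL. Gzmb had 187 CPM in LYZKL and 441 CPM in WTKL (log2 ratio -1.24, -1.46 to -1.01). It was detected in 26.6% of LYZKL and 39.2% of WTKL cells, in 15.8% and 30% after thinning, and in 3.05% and 7.38% of B cells. A Gzmb UMI was found in 2.94% of LYZKL and 11.7% of WTKL Lyz2-rich barcodes. Serpinb9, the intracellular granzyme B inhibitor, had 26.2 CPM in LYZKL and 74.6 CPM in WTKL (-1.51). Serpinb6b, a serpin of the same clade, had 22.2 and 79.3 CPM (-1.84). The list of granule and cytokine genes did not go one way. Its 17 measured genes had 2 past 1.5-fold higher, 4 lower and a median of 0.25. Over all 8996 genes, 16.3% were past it higher and 7.09% lower. Ifng was 262 CPM in LYZKL and 216 CPM in WTKL (0.28), and Ccl5 7338 and 9654 CPM (-0.40). In the Xcl1 or Itga1 class the log2 ratio of Gzmb was 0.35, and in the Gzma class it was -1.77. The differences between classes were not tested.

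The transcription factors Maf and Ikzf2 were lower in LYZKL. Maf, a factor of T cells that make interleukin 10, had 22.2 CPM in LYZKL and 77.7 CPM in WTKL (log2 ratio -1.81, -2.47 to -1.19). Ikzf2 had 41.2 and 132 CPM (-1.68, -2.16 to -1.22). After thinning, a Maf UMI was found in 3.60% of LYZKL and 12.7% of WTKL cells, and an Ikzf2 UMI in 9.01% and 19.5%. Among B cells, not thinned, a Maf UMI was found in 6.1% in LYZKL (3.76 to 9.26) and 4.03% in WTKL, and an Ikzf2 UMI in 1.83% and 0.671%. Over all chosen cells, not thinned, a Maf UMI was found in 8.08% in LYZKL (5.07 to 12.1) and 25.7% in WTKL. The LYZKL intervals overlap, so the LYZKL share of Maf was not clearly above background. Tox and Pdcd1, often measured with Maf and Ikzf2, were not past 1.5-fold. Tox had 305 CPM in LYZKL and 290 CPM in WTKL (0.07, -0.14 to 0.28), and Pdcd1 215 and 172 CPM (0.32, 0.06 to 0.58). The exhaustion and checkpoint list of 19 genes had 4 past 1.5-fold higher and 3 lower, with a median of -0.07. Of all 8996 genes, 16.3% were past it higher and 7.09% lower. Cxcr3, a receptor for interferon-induced chemokines, had 105 CPM in each library (0.00). Cd38, an NAD-consuming surface enzyme named in the series title, had 32 UMIs in LYZKL and 59 UMIs in WTKL (-0.87, -1.54 to -0.22), and P2rx7, an ATP-gated channel, 5 UMIs in each. Other genes among the lowest were St6galnac3, Serp2, Frat2, Klf9, Pde2a, Aff1 and the receptor gene Gpr18. Gpr18 had 83.2 CPM in LYZKL and 176 CPM in WTKL (-1.08).

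**Figure D3:**
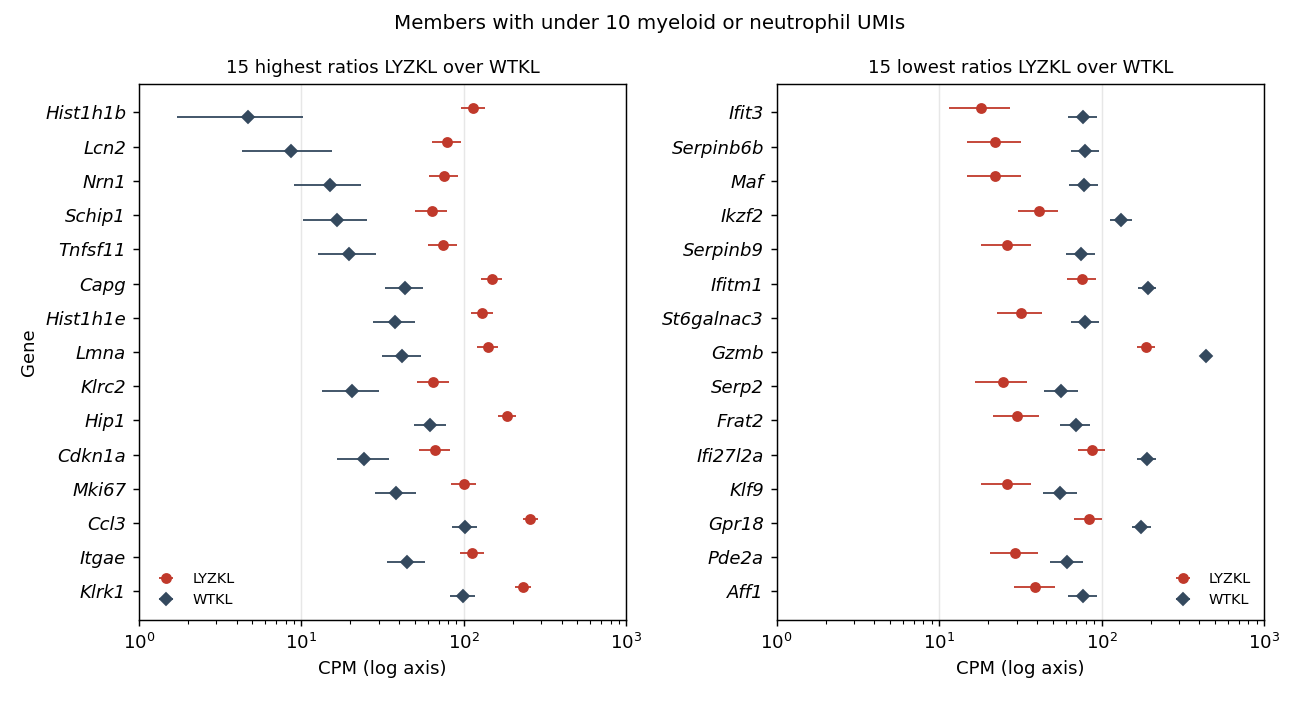
Levels in CPM (log axis) of the 15 genes with the highest (left) and the 15 with the lowest ratio (right) in myeloid-low cells, LYZKL in red and WTKL in dark blue, with exact Poisson 95% intervals. Klrk1 stands at 232 CPM in LYZKL and 98.2 CPM in WTKL, and Ifit3 at 18.2 and 77.0 CPM.

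Interferon-induced genes were lower in LYZKL. Ifit3, an antiviral protein gene, had 18.2 CPM in LYZKL and 77.0 CPM in WTKL (log2 ratio -2.08, -2.80 to -1.41), from 23 and 98 UMIs. It was detected in 11 LYZKL and 39 WTKL myeloid-low cells. Of 37 measured genes of the type I interferon list, 34 were lower and 12 past 1.5-fold lower, none past it higher, with a median of -0.43. Of all 8996 genes in myeloid-low cells, 7.09% were past it lower and 16.3% higher. Over all chosen cells 38 of 39 list genes were lower and 21 past 1.5-fold lower, with a median of -0.73. There, 8.87% of 9332 genes were past it lower and 14.1% past it higher, with a median of 0.10. Ifit1 had 11.1 CPM in LYZKL and 33.8 CPM in WTKL (-1.61), and Irf7, a transcription factor that the interferons induce, 22.2 and 49.5 CPM (-1.16). Ifi27l2a had 87.2 and 189 CPM (-1.12). Others were closer to 0. Isg15, a ubiquitin-like modifier gene, had 46.8 and 62.8 CPM (-0.43), and Bst2, which encodes the surface protein tetherin, 99.1 and 137 CPM (-0.47). Ifitm1 depended on the myeloid-rich cells, at -1.33 without them and -0.04 with them. The list was also lower in the other CD8 classes, there over all cells, with medians of -0.45 in the Xcl1 or Itga1 class, -0.13 in cells with none of the 4 genes and -0.63 in the Gzma class. The lower level was thus not particular to Gzmk or Eomes cells.

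Interferon acts on such genes through a promoter element that interferon-activated factors bind. The 3 promoters below are shown because their genes run from the lowest of the list to its median, and each holds the motif searched. RefSeq gives them on GRCm38.p6 as the 250 bases just before the start of transcription, 5′ to 3′ on the strand of the gene. Ifit3 is at chr19:34583279-34583528 (plus strand), Ifit1 at chr19:34640639-34640888 (plus strand) and Isg15 at chr4:156200819-156201068 (minus strand). Capitals mark matches to GAAANNGAAA on either strand.
Ifit3: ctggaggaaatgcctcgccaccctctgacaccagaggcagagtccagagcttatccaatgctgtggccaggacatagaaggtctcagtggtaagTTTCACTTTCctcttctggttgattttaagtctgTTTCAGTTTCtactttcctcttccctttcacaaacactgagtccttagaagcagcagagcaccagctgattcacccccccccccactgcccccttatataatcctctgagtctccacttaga
Ifit1: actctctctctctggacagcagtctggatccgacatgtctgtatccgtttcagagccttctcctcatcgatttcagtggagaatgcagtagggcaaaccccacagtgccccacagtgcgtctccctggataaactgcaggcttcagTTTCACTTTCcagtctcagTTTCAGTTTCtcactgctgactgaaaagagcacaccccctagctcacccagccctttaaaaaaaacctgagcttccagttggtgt
Isg15: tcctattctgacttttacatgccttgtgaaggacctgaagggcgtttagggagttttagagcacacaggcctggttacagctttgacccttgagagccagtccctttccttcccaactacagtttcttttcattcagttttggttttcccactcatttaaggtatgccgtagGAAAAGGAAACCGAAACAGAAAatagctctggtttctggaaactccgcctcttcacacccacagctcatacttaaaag
Ifit3 and Ifit1 held 2 matches each, all in the reverse orientation, and Isg15 held 3 that overlap. In windows from 250 bases before to 50 after the start, the motif was found in 23 of 42 promoters of the interferon list (54.8%), which cover 34 of its 42 genes. Over all 32851 promoters of the table it was found in 3.44%. A match is a description of the letters, and binding was not measured.

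LYZKL had lower levels of genes that naive and central memory cells carry. Tcf7, which encodes the factor TCF-1, had 173 CPM in LYZKL and 299 CPM in WTKL (log2 ratio -0.79, -1.04 to -0.55), and Lef1, a factor of the same family, 159 and 224 CPM (-0.50, -0.77 to -0.23). After thinning, a Tcf7 UMI was found in 14.9% of LYZKL and 35.0% of WTKL cells, and without thinning in 3.35% and 4.92% of B cells. Il7r, the interleukin 7 receptor, had 519 and 614 CPM (-0.24). Of the 15 genes of the list 14 were lower and 4 past 1.5-fold lower, with a median of -0.49. Over all 8996 genes of myeloid-low cells, 7.09% were past it lower and 16.3% higher, with a median of 0.10. In all cells of the other CD8 classes the list median was -0.87 with Xcl1 or Itga1, -0.62 with none of the 4 genes and -0.85 with Gzma. As with the interferon list, the same direction was thus found outside Gzmk or Eomes cells.

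The same list is given here within the kinds of cell. In the 183 LYZKL and 163 WTKL myeloid-low cells that carry Gzmk, its 15 genes were all lower in LYZKL and 10 past 1.5-fold lower, with a median of -0.90. In these cells 11% of 9073 genes were past it lower and 17.8% past it higher, with a median of 0.06. Tcf7 had 68.9 CPM in LYZKL and 196 CPM in WTKL (log2 ratio -1.51, -1.95 to -1.08), and was found in 30 and 59 cells. Ccr7 had 10.0 and 49.9 CPM (-2.32, -3.54 to -1.26). Igfbp4 had 4 UMIs in LYZKL and 41 UMIs in WTKL. In the 46 LYZKL and 59 WTKL Eomes-only cells, 8 of the 15 genes were lower and none past 1.5-fold lower, with a median of -0.02. There, 13.5% of 8997 genes were past it lower and 24% past it higher, with a median of 0.14. In Eomes-only cells a gene at 5 CPM rests on few UMIs, and a gene at 0 in a library was set to 3 counts. For a gene with few UMIs this floor can turn the sign of the ratio. The shares and median over all genes of Eomes-only cells depend on it and are a weak reference. Tcf7 had 432 CPM in LYZKL and 487 CPM in WTKL in these cells (-0.18, -0.48 to 0.13), and Ccr7 329 and 310 CPM (0.09, -0.28 to 0.45). The difference between the kinds was not tested. The gap between the libraries also varied with the UMIs of Gzmk and Eomes together, here over all chosen cells. At 1 such UMI, Tcf7 was 181 CPM in LYZKL and 324 CPM in WTKL, at median depths of 4650 and 7043 UMIs. It was 164 and 186 CPM at 2 to 4 UMIs and 80.3 and 139 CPM at 5 or more. Ccr7 was 122 and 151 CPM, 74.2 and 97.1 CPM, and 34.8 and 23.8 CPM in the same order. Which of these cells set the list median was not tested.

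The interferon list had medians under 0 in both kinds. In Gzmk-carrying cells 31 of 35 genes were lower and 18 past 1.5-fold lower, with a median of -0.63, and in Eomes-only cells 22 of 37 were lower and 7 past it, with a median of -0.19. Ifit3 had 11.1 CPM in LYZKL and 70.6 CPM in WTKL in Gzmk-carrying cells (-2.67), and 35.97 and 88.6 CPM in Eomes-only cells (-1.30). The NK receptor list was mixed. In Gzmk-carrying cells 8 of 14 were past 1.5-fold higher and 4 lower, with a median of 0.75, and in Eomes-only cells 3 of 12 were past it higher and 2 lower, with a median of -0.11, a share near that of all genes there. Over all Eomes-only cells, myeloid-rich ones included, the median was 0.54. In Eomes-only cells, genes of the interferon and NK receptor lists with few UMIs also depend on the floor of 3 counts. Klrk1 had 312 CPM in LYZKL and 119 CPM in WTKL in Gzmk-carrying cells (1.39, 1.05 to 1.74), and 33.2 and 59.8 CPM in Eomes-only cells, from 12 and 27 UMIs (-0.85, -1.97 to 0.18). Klrd1, the CD94 partner chain of the NKG2 receptors, had 385 and 186 CPM in Gzmk-carrying cells (1.05) and 232 and 273 CPM in Eomes-only cells (-0.23). S100a4 was higher in LYZKL in both kinds (1.10 and 1.39), and Gzmb lower in both (-1.37 and -1.0). Ikzf2 had 52.2 and 192 CPM in Gzmk-carrying cells (-1.88), and 5 and 10 UMIs in Eomes-only cells, too few to compare. None of these differences between the kinds was tested.

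**Figure D4:**
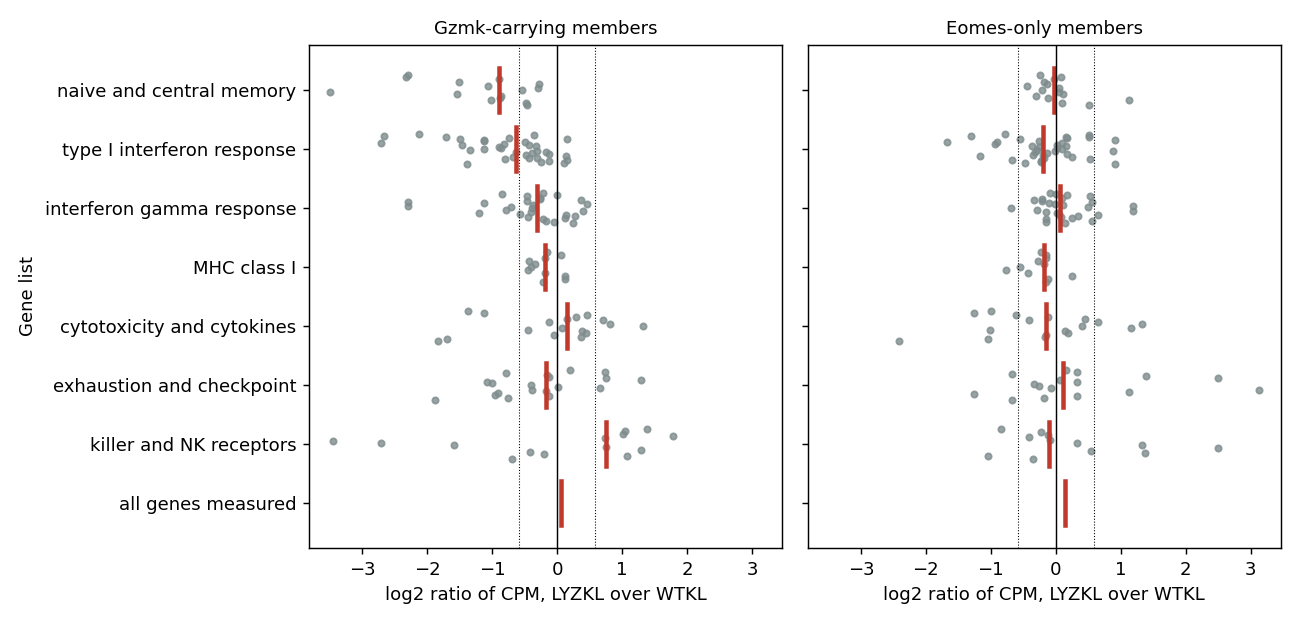
Log2 ratios of LYZKL over WTKL by gene list, in myeloid-low Gzmk-carrying cells on the left and Eomes-only cells on the right. Grey points are genes, red bars list medians and dotted lines 1.5-fold, and a gene at 0 in one library is set to a floor of 3 counts. The median of the naive and central memory list is -0.90 on the left and -0.02 on the right.

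The other lists stayed closer to the median of all genes. In myeloid-low cells the interferon gamma list had 17 of 28 genes lower (median -0.16), the MHC class I list 8 of 11 (-0.19) and the pro-apoptotic list 15 of 19 (-0.20). None of the MHC class I genes was past 1.5-fold. Bcl2l11, which encodes the pro-apoptotic protein Bim, had 47.6 CPM in LYZKL and 91.9 CPM in WTKL (log2 ratio -0.95, -1.42 to -0.49). The survival list had a median of -0.16, glycolysis 0.21, oxidative phosphorylation 0.18, the STING pathway 0.24 from 6 genes, and NAD ectoenzymes with P2X7 0.11 from 9. The cell cycle list had 16 of 22 genes higher, with a median of 0.37 that was 0.95 over all chosen cells.

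T cell receptor segments differed between the libraries. Of the chosen cells, 47 in LYZKL and 41 in WTKL had a UMI of a Trbv segment. Trbv1 was found in 21 of these in LYZKL (44.7%, Clopper-Pearson 95% interval 30.2 to 59.9) and in 0 of 41 in WTKL (0 to 8.60). Trbv13-1 was found in 1 LYZKL and 8 WTKL cells. In LYZKL, 19 of 37 Gzmk-carrying and 2 of 10 Eomes-only cells with a segment had Trbv1, and all 8 WTKL cells with Trbv13-1 carried Gzmk. The other CD8 classes showed the same order. Trbv1 was found in 42.1% of cells with a segment in LYZKL and 4.88% in WTKL in the Xcl1 or Itga1 class, and in 29.7% and 0.862% in the Gzma class. A 3′ library captures few variable segments, so these shares are of a small, selected part of the cells. The libraries also differed in the sex-linked gene Xist, which female cells transcribe. Of the chosen cells with UMIs of Xist or of Y-linked genes but not of both, 1 LYZKL cell (0.559%) and 12 WTKL cells (6.22%) had Xist alone. Y-linked UMIs alone were found in 178 LYZKL and 181 WTKL cells, and both in 0 and 3.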

How the data were processed

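The deposited matrices hold raw UMI counts per gene and barcode, made with Cell Ranger 6.1.2 on mm10 from 10x 3′ libraries, per the submitters' processing notes and the labels' protocols. The lowest total of a barcode was 501 UMIs in LYZKL and 500 in WTKL, so barcodes under 500 UMIs are not in the matrices. Which step set this limit is not given in the sources used here. The 7202 and 6609 stated cells stand beside 13607 and 12204 deposited barcodes. Total counts give the depth, and intervals cover counting error only.

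Cells with under 500 detected genes (121 in LYZKL, 170 in WTKL) or over 10% mitochondrially coded UMIs (35 and 31) were left out, and the rule for the cells was applied to the raw counts. Doublets were kept, since the rule has no doublet step. Scrublet, as built into scanpy 1.11.5, served as an alternative at 0.8% of barcodes per 1000 and would remove 29 of 260 LYZKL and 24 of 268 WTKL cells. Counts of a class were added up within each library and scaled to CPM with python 3.11.15, numpy 2.4.6 and scipy 1.17.1. Intervals at 95% are exact Poisson for levels, Clopper-Pearson for shares, Katz for ratios of shares and conditional binomial for CPM ratios. Shares were also computed with each cell thinned to 2000 UMIs, which left out 7 LYZKL and 2 WTKL chosen cells.

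Named genes between the libraries were the 15 with the highest and the 15 with the lowest log2 ratio, of those reaching 30 CPM in either library and 100 UMIs in all. Genes of the rule, unnamed gene models, sex-linked genes, ribosomal protein genes, mitochondrially coded genes and receptor or immunoglobulin segments were left out. The 10 (classes) or 8 (kinds) highest and lowest were taken by the value nearer 0 of both libraries. The 4 markers, Tcf7, Il7r, Pdcd1, Tox, Ifng, Gzmb, Cxcr3, Cxcr6, Tmem173, Cd38 and P2rx7 were always named. Some genes that these rules select are not reported here. List genes needed 5 CPM, and 7 list entries were absent from the matrix. For lists and for shares over all genes, a gene at 0 in a library was set to 3 counts. The cells, lists and thresholds were chosen with earlier results of these data known. The step to myeloid-low cells, a minimum depth of the cells, the filter on other cell types over all CD8 cells and the removal of cells with Xist were added after seeing the data, and genes named from lists within kinds were chosen after their values were seen. Scaling with edgeR 4.0.16 (TMM only) was an alternative. The CPM ratios were tested on simulated counts.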

Additional observations from a re-analysis of the deposited data

Results flagged for a closer look

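In 4 genes the ratio between the libraries was past 1.5-fold in the myeloid-low Gzmk or Eomes cells and past it the other way in the Gzma class. Values of the Gzma class are over all its cells, myeloid-rich ones included. Hist1h1b had a log2 ratio of LYZKL over WTKL of 4.60 in Gzmk or Eomes cells and -1.24 in Gzma cells (78.0 CPM in LYZKL and 184 CPM in WTKL). Hist1h1e had 1.78 in Gzmk or Eomes cells and -1.15 in Gzma cells (95.5 CPM and 211 CPM). Mki67 had 1.38 and -1.08 (128 CPM and 271 CPM in Gzma cells). Ifitm1 had -1.33 in Gzmk or Eomes cells and 0.68 in Gzma cells (999 CPM in LYZKL and 623 CPM in WTKL). With 1 library per group these differences were not tested. Cells with at least 5 cell cycle UMIs were 7.43% of Gzma cells in LYZKL and 19.3% in WTKL.

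Trbv1 was seen in data that the comparisons above do not use for cell choice. It was found in 44.7% of LYZKL Gzmk or Eomes cells with a Trbv UMI and in none of the 41 WTKL cells.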

How the results depend on the processing

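No paired analysis was possible because each group has 1 library. No replicate was left out, as that removes a group. The share ratio of 0.712 was 0.560 for cells with at least 1 Eomes UMI, 0.554 with no limit on Gzma, 0.901 with up to 1 Xcl1 or Itga1 UMI and 0.896 after thinning. It was 0.866 of all barcodes past quality control and 0.894 of Cd3 positive ones. It reversed to 1.47 (0.981 to 2.19) when chosen cells with 3 or more UMIs of other cell types' markers were left out and the 3092 and 2268 CD8 cells were not, which kept 70 LYZKL and 35 WTKL cells. With all CD8 cells filtered alike, an alternative added after seeing the data, it was 0.619. The other 10 values differed by less than the counting interval.

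Of 4694 genes, 228 were past 1.5-fold higher and 211 lower in LYZKL. These counts were 129 and 122 for cells with at least 1 Eomes UMI, 45 and 44 after thinning, 27 and 28 under the filter on other cell types, and 53 and 77 for genes of at least 100 CPM. With at least 2 Gzmk and Eomes UMIs 130 genes were higher, with TMM scaling (factors 1.03 and 0.968) 140 were higher, and in myeloid-low cells 82 were lower.

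For lists, the median of naive and central memory genes was -0.77 with at least 1 Gzmk UMI and -0.057 with at least 1 Eomes UMI. The memory and innate-like list, 0.13 over all chosen cells, reversed to -0.10 with at least 2 UMIs, -0.11 after thinning, -0.25 under the filter on other cell types and -0.15 as a mean per cell. The cytotoxicity list, 0.07, was -0.15 with Eomes, -0.016 after thinning, -0.043 under that filter, -0.025 with TMM and -0.0505 with the kinds weighted equally. The killer and NK receptor list, 0.68, was -0.024 with Eomes, -0.080 with no limit on Gzma and -0.40 under that filter, which counts UMIs of Klrb1c, Fcer1g and Tyrobp of this very list. The exhaustion list, 0.15, was -0.26 with at least 2 UMIs, -0.0066 with Gzmk, -0.0075 with Eomes, -0.44 after thinning, -0.0854 under that filter, -0.067 as a mean per cell and -0.066 in myeloid-low cells. Costimulation was -0.27 after thinning, and cell cycle -0.65 with no limit on Gzma and -0.36 under that filter.

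Among named genes 26 of 1330 values reversed, in 20 genes, counting only genes past 1.5-fold over all chosen cells. Cdkn1a, at -0.38 there and so not counted, was 1.45 in myeloid-low cells. Thinning gave Ccl17 -0.49, S100a9 -0.89, Retnlg -2.15, Ifi204 0.25, Anpep 0.51, Csf1r 1.51 and Slc7a2 0.51. In myeloid-low cells Ccl17 was -2.79, S100a9 -0.54, C1qc 0.60, March1 0.013, C1qb 1.60, Slc7a2 0.013 and P2rx7 0.013. With no limit on Gzma, Hist1h1d was -0.15, Pclaf -1.24 and Mki67 -0.61. With at least 1 Eomes UMI Cxcl1 was 0.50. Without the highest Scrublet scores Cstdc5 was -1.28, S100a9 -0.00306 and Lcn2 -2.28. The filter on other cell types gave S100a9 -0.78, Cybb 0.010, Lcn2 -1.57, Ccl3 -0.043 and Klf9 0.33. The causes were not tested. Thinning leaves few UMIs of genes near 30 CPM, and genes with under 10 UMIs in a library cannot be ordered at this depth.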
